A study of Mus musculus with 4 samples.

Results

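Polycomb repressive complex 2 (PRC2) was followed through 6 of its genes: Ezh1, Ezh2, Suz12, Eed, Jarid2 and Mtf2. They were chosen by symbol, and each matched exactly 1 of the 32285 gene features that were counted. The material was mouse bone marrow sorted for the donor allele CD45.2 and the receptor Kit, taken 10 weeks after transplantation. Single cells were sequenced from 4 groups, a control and groups labelled as deleted for Mll3 (gene Kmt2c), for Mll4 (gene Kmt2d) or for both, called Mll3/4. Each group is 1 library, and the labels do not say how many animals it holds, which strain, Cre or promoter was used, or how old the animals were. All 4 groups share the transplantation, so the control is also marrow that regrew from transplanted cells in a host.

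PRC2 places methyl groups on lysine 27 of histone H3, a mark of genes that are kept silent. Its catalytic subunit is either Ezh2, which is prominent in dividing cells, or Ezh1, which is found more widely in resting cells, and the enzyme works only together with the core subunits Suz12 and Eed. Jarid2 and Mtf2 belong to alternative forms of the complex and help to bring it to chromatin. In blood formation PRC2 is known for its roles in stem cells and in early B cells, where Ezh2 is needed for normal development.

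The promoters of 4 members are shown because Ezh2 and Suz12 went up, and Ezh1 and Jarid2 went down, with the share of cell division transcripts in both classes described further on. Eed also went up in control cells of both classes, but its window lies entirely in annotated exons and is not printed. The sequences are RefSeq's for GRCm38.p6, read 5′ to 3′ on the strand of the gene. The windows are the 250 bases before an annotated start. In the Ezh2 window 125 bases lie in annotated exons, and the printed stretch is the other 125 bases, from 153 to 29 bases before the start. Capitals mark matches, on either strand, to the CCAAT box (CCAAT), to E2F-like sites (TTTCCCGC, TTTGGCGC, TTTCGCGC or TTTGCCGC) or to the cell cycle homology region (TTTGAA or TTCGAA), motifs that textbooks associate with promoters of cell cycle genes. The windows are Ezh2 at chr6:47595059-47595183 (minus strand), Suz12 at chr11:79992856-79993105 (plus strand), Ezh1 at chr11:101226464-101226713 (minus strand) and, of 2 annotated Jarid2 starts, the first at chr13:44730524-44730773 (plus strand).
Ezh2: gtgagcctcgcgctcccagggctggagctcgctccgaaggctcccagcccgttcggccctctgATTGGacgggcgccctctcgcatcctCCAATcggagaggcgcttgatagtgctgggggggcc
Suz12: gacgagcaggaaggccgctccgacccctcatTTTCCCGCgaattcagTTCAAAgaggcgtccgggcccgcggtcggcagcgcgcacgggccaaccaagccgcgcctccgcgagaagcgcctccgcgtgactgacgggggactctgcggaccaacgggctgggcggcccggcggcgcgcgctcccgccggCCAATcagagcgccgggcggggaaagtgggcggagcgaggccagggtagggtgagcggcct
Ezh1: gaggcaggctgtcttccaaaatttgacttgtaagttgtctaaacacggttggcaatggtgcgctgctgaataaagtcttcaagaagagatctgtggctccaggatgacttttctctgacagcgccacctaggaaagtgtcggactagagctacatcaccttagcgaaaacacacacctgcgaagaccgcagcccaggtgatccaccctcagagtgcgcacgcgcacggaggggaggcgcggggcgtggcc
Jarid2: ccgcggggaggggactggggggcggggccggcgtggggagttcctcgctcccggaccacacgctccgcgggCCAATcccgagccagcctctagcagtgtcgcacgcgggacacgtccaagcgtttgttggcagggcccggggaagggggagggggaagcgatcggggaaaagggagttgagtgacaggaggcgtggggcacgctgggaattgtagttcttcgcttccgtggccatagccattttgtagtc

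The Suz12 window held 1 match to each of the 3 motifs, with the E2F-like letters 219 to 212 bases before the start. The whole Ezh2 window held 3 CCAAT matches and none of the other letters. No match lay in the Ezh1 window, and the Jarid2 window shown held 1 CCAAT match, the second Jarid2 window none. Of the 2 Mtf2 windows, which are not printed, the first held no match. The second held 1 match to the cell cycle homology region and 1 to CCAAT. The Eed window lies entirely in annotated exons, is not printed, and held 2 matches to the cell cycle homology region. The E2F-like letters, which do not overlap the other motifs in the Suz12 window, occurred in 1.86% of 32851 promoter windows of the same length, the cell cycle homology region in 17.1% and CCAAT in 33.8%. These are matches of letters only, and no binding was measured.

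The genes lie on 5 chromosomes in GENCODE M21 for GRCm38. Ezh1 (ENSMUSG00000006920) spans chr11:101191115-101226463 and Suz12 (ENSMUSG00000017548) spans chr11:79993106-80034123. Ezh2 (ENSMUSG00000029687) spans chr6:47530139-47595341, and Eed (ENSMUSG00000030619) spans chr7:89954654-89980983. Jarid2 (ENSMUSG00000038518) spans chr13:44729474-44921643, and Mtf2 (ENSMUSG00000029267) spans chr5:108065674-108109004.

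After filtering, 5350 to 7146 cells were kept per library, with 32777830 to 153615605 unique molecular identifiers (UMIs, each 1 counted RNA molecule). Depth differed: the median cell held 15754 UMIs in control, 16963.5 in the library labelled Mll3 deleted, 5142 in Mll4 and 9965 in Mll3/4. Libraries shared between 9 and 24 cell barcodes by pair. The targeted genes followed the labels only in part. Kmt2c stood at 47.9, 27.2, 59.2 and 34.8 CPM (UMI counts scaled to the same total in every library) in control, Mll3, Mll4 and Mll3/4, and Kmt2d at 25.8, 21.6, 24.99 and 24.7 CPM, so that the Mll4 label is not borne out by the level of Kmt2d. The 3′ tags counted here may lie outside the deleted part, and the groups are therefore named as labelled. Xist, which is made from an inactive X chromosome, was at 0.519 CPM in the Mll4-labelled library and between 955 and 1839 CPM in the others, so that library also differs from the others in this mark of female cells. Kit stood at 105, 108, 167 and 190 CPM, so the sorted receptor was transcribed in every library. No group was replicated, so no test was made, and every interval here is a 95% interval for counting error only.

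Over all kept cells the members of the core complex were abundant enough in each library to be compared closely. Ezh2 was at 202 CPM in control, 214 in Mll3, 153 in Mll4 and 265 in Mll3/4. Suz12, the scaffold of the complex, was at 155, 151, 148 and 134 CPM in the same order, and Eed, which binds the finished mark, at 61.7, 58.2, 66.5 and 48.3. Ezh2 was thus highest, and Suz12 and Eed lowest, in the Mll3/4-labelled library. The accessory gene Mtf2 was at 73.5, 76.2, 80.1 and 121 CPM. Jarid2, the other accessory gene, was at 34.3, 34.9, 39.997 and 29.5 CPM. Ezh1 was at 8.91, 8.90, 13.6 and 12.6 CPM, higher in the Mll4- and Mll3/4-labelled libraries than in the other libraries.

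As ratios to control, none of the 6 members passed 1.5-fold in the Mll3-labelled library, where 12.4% of the 14550 genes with at least 20 counts in either library did. Their log2 ratios there lay between -0.08 and 0.09. With Mll4 labelled as deleted, 1 member passed, Ezh1 (log2 ratio 0.61, interval 0.45 to 0.76), against 40.4% of all genes. In the Mll3/4-labelled library 1 member passed, Mtf2 (0.72, interval 0.68 to 0.76), against 56.9% of all genes. Ezh2 was higher there by a log2 ratio of 0.39 (0.37 to 0.42) and Eed lower, at -0.35 (-0.41 to -0.30). The median of the 6 members was 0.01, 0.12 and 0.09 in the Mll3, Mll4 and Mll3/4 libraries, beside -0.05, 0.02 and -0.02 over all genes. Members therefore passed the threshold no more often than genes at large. In bulk sums like these, more cells of a type and more RNA per cell cannot be told apart, and the makeup of the libraries differed strongly.

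Cells were grouped by clustering, in which none of the Polycomb genes took part, and clusters were named from marker genes. The B-cell progenitor-like class held 6.55% of control cells, 6.28% of Mll3, 2.67% of Mll4 and 98.7% of Mll3/4. HSC/MPP-like cells, carrying markers of haematopoietic stem cells and multipotent progenitors, numbered 1433, 1030, 341 and 13. The B markers were all present in the B class of every library, with a summed level of 14821, 12594, 9794 and 12584 CPM. The B class of the first 3 libraries lay almost wholly in clusters 0 and 15, and that of Mll3/4 in clusters 21 to 24, which held 1 control cell and 2 Mll4 cells. Clusters made almost wholly of 1 library may reflect that library, and none of the B markers was among the 10 leading genes of these 4.

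The catalytic subunit Ezh2 varied most between classes in the control library. B-cell progenitor-like cells held 486 CPM (interval 462 to 511), erythroid progenitor-like cells 235 (231 to 239) and megakaryocyte-like cells 202 (194 to 210.0), and these intervals do not overlap. HSC/MPP-like cells followed at 161 CPM and neutrophil-like cells at 152, with overlapping intervals. Granulocyte progenitor-like cells at 141, basophil/mast-like cells at 135 and monocyte/macrophage progenitor-like cells at 132 could not be ordered by their intervals. The lowest level, 73.2 CPM (45.9 to 111), was in T/NK/innate lymphoid-like cells and rests on 22 counts.

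Ezh1, the alternative catalytic subunit, had a different order. It was highest in basophil/mast-like cells at 24.3 CPM (24 counts), then 14.2 in HSC/MPP-like cells, and lowest in erythroid progenitor-like cells at 6.91 CPM. The intervals of the basophil/mast-like and HSC/MPP-like cells overlap. The erythroid interval overlaps those of neutrophil-like cells at 7.80 CPM and granulocyte progenitor-like cells at 8.45. B-cell progenitor-like cells at 12.3 CPM and megakaryocyte-like cells at 10.7 lay between, with intervals that overlap each other and that of HSC/MPP-like cells. The share of Ezh1 among the UMIs of both catalytic genes, which removes the depth of a class but not the difference in capture between 2 genes, put this on 1 scale. In control it was 2.47% (1.76 to 3.36) in B-cell progenitor-like cells, 2.86% in erythroid progenitor-like cells, 8.08% in HSC/MPP-like cells and 15.3% in basophil/mast-like cells.

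Suz12 followed the order of Ezh2 at its top end, with 189 CPM in B-cell progenitor-like, 172 in erythroid progenitor-like and 155 in megakaryocyte-like control cells, the first 2 of which overlap in their intervals. Neutrophil-like cells followed at 149 CPM, and the remaining classes lay between 86.5 and 128 CPM. Eed was highest in erythroid progenitor-like cells at 78.0 CPM (76.0 to 80.1) and lowest in neutrophil-like cells at 40.7, with B-cell progenitor-like cells at 62.1. The neutrophil interval overlaps those of granulocyte progenitor-like cells at 42.4 CPM and basophil/mast-like cells at 43.5. That of T/NK/innate lymphoid-like cells, on 19 counts, overlaps both ends. The core genes thus shared their high level in erythroid cells, but Eed was not highest in B cells.

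The accessory genes had their own patterns. Jarid2 was highest in T/NK/innate lymphoid-like cells at 86.5 CPM (26 counts) and in megakaryocyte-like cells at 83.8 (78.8 to 89.0). It was lowest in erythroid progenitor-like cells at 25.1 and neutrophil-like cells at 27.2, whose intervals overlap. The dendritic-like class reached 50 cells only in the Mll4-labelled library, where its Jarid2 level of 153 CPM was the highest of any class and library. Mtf2 was at 120 CPM in B-cell progenitor-like cells and 108 in HSC/MPP-like cells, whose intervals overlap, and at 38.9 (36.5 to 41.5) in neutrophil-like cells, below every other class of control.

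**Figure D1:**
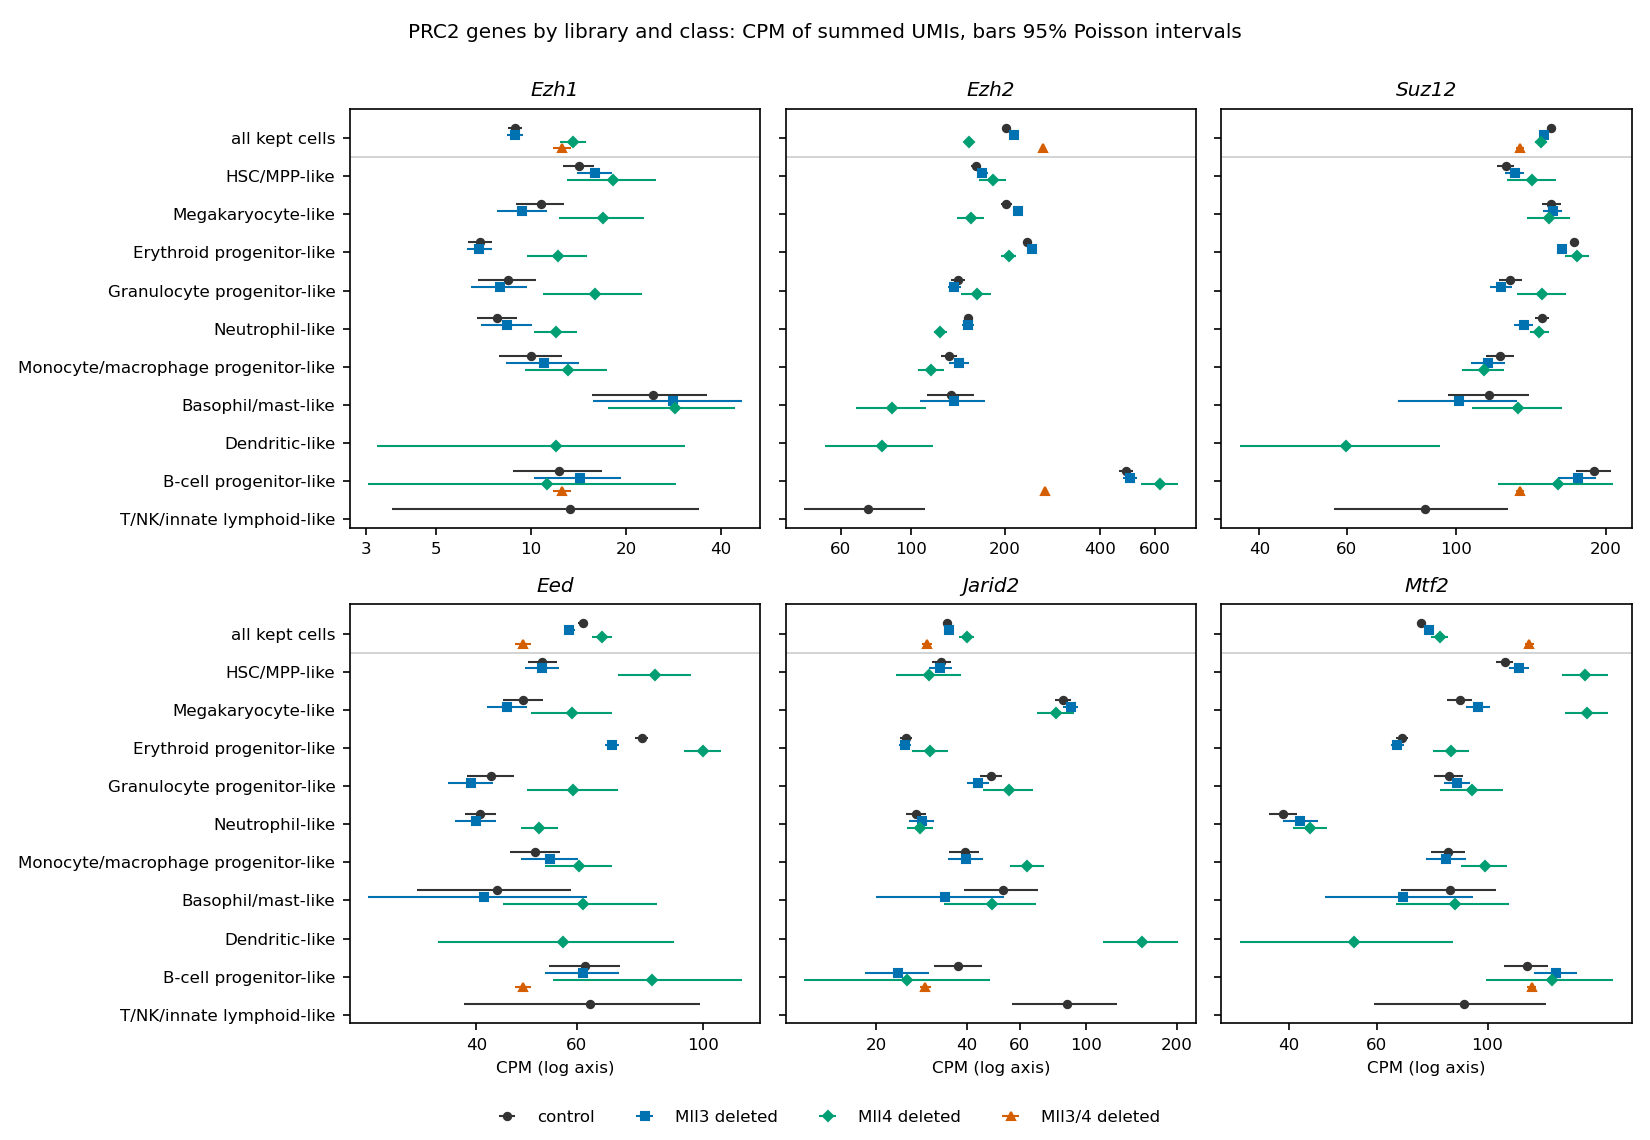
Level of each PRC2 gene in CPM (log axis) by class and by library, as points with 95% Poisson intervals, for classes of at least 50 cells in that library. In B-cell progenitor-like cells Ezh2 stands at 486 CPM in control, 501 in Mll3, 620.4 in Mll4 and 267 in Mll3/4, while Mtf2 stands between 120 and 137 CPM in all 4.

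What the change in makeup alone would give was computed from the control level of each class and the share of UMIs that each class held in another library. For Ezh2 in the Mll3/4-labelled library this gave 478 CPM, and 265 were measured, a log2 ratio of -0.85. For Suz12 it gave 188 CPM against 134 measured (-0.49), for Eed 61.8 against 48.3 (-0.36) and for Jarid2 37.7 against 29.5 (-0.35). For Mtf2 the computed level of 119 CPM and the measured 121 differed by 0.03, and for Ezh1 the values were 12.3 and 12.6 CPM. The higher Mtf2 of that library over all cells was thus also the level that its B-cell makeup gives with control values, and its Ezh2 was well short of it.

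In the Mll4-labelled library the makeup gave 51.1 CPM of Eed and 66.5 were measured (0.38). Mtf2 was likewise above the computed level, at 80.1 against 62.6 CPM (0.36), and Ezh1 at 13.6 against 11.7. Ezh2 was below it, at 153 against 173 CPM. In the Mll3-labelled library all 6 measured levels lay within a log2 ratio of -0.12 to 0.05 of the computed ones.

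**Figure D2:**
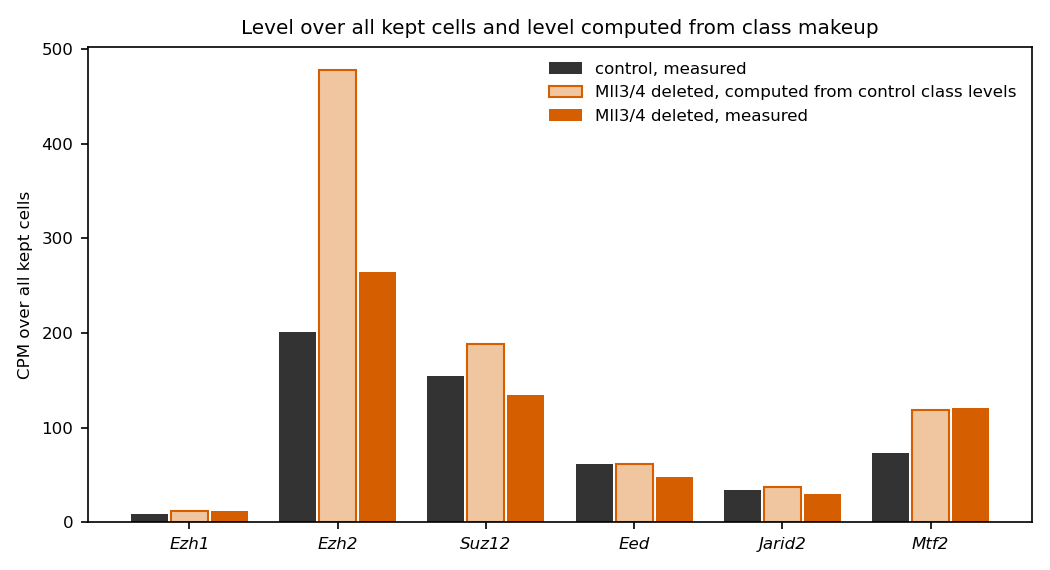
Level of each PRC2 gene in CPM over all kept cells (bars from 0): measured in control, computed for Mll3/4 from the control level of each class, and measured in Mll3/4. For Ezh2 the bars stand at 202, 478 and 265 CPM, and for Mtf2 at 73.5, 119 and 121 CPM.

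In the B-cell progenitor-like class Ezh2 was at 486 CPM in control, 501 in Mll3, 620.4 in Mll4 (221 counts) and 267 in Mll3/4. The Mll3/4 level lay below all 3 others, outside their intervals. Its log2 ratio to control was -0.86 (-0.94 to -0.79), a 0.550-fold level, and to the Mll3-labelled library -0.91 (-0.98 to -0.83). Ezh2 was the 1 member past 1.5-fold in this comparison, against 17.6% of 13455 genes lower and 42.5% past it in either direction. Among the 5653 genes with a mean of at least 20 CPM, a set to which 5 of the members belong and not Ezh1, 15.6% were lower. The Ezh2 ratio ranked at percentile 11.8 of all genes compared.

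Suz12 was at 189, 176, 160.0 and 134 CPM in these B cells in the order control, Mll3, Mll4 and Mll3/4, a log2 ratio of -0.50 (-0.62 to -0.38) for Mll3/4. Eed was at 62.1, 61.5, 81.4 and 48.3 CPM (-0.36, -0.57 to -0.15). Jarid2 was at 37.5, 23.6, 25.3 and 29.1 CPM, so that control stood highest and Mll3/4 second. The Jarid2 ratio was -0.36 (-0.63 to -0.09) against control but 0.30 (-0.05 to 0.67) against Mll3, which makes its direction depend on the reference library.

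Mtf2 was at 120, 137, 135 and 123 CPM, and Ezh1 at 12.3, 14.3, 11.2 and 12.6 CPM, with Mll3/4 log2 ratios of 0.03 (-0.12 to 0.19) and 0.03 (-0.43 to 0.53). The wide Ezh1 interval comes with 39 counts in control. The Ezh1 share of both catalytic genes was 4.49% (4.21 to 4.77) in Mll3/4 against 2.47% (1.76 to 3.36) in control. The median of the 6 members was -0.36, beside 0.02 over all genes. The abundant genes of this class were shifted by a median of -0.15, and relative to that shift Ezh2 stood at -0.71, Suz12 at -0.35, Eed and Jarid2 at -0.21 and Mtf2 and Ezh1 at 0.18. With cells thinned to 2000 UMIs, Ezh2 stayed lower at -0.65, whereas Eed turned to 0.39. Jarid2 and Ezh1 were then past 1.5-fold lower as well as Ezh2, and the share of all genes past it is not given for thinned cells. Over all alternatives Jarid2 ranged from -0.89 to -0.21 and Ezh1 from -0.61 to 0.29. Ezh1 is sparse after thinning, with a UMI in 17 of 438 control cells of this class. In the Mll3-labelled B cells 1 member passed 1.5-fold, Jarid2 at -0.67 (-1.12 to -0.22, 68 against 119 counts), against 12.1% of genes. In the Mll4-labelled B cells, which gave few counts, none did, against 41.1% of genes.

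Cell division moved beside this result. The summed level of 52 genes of the G2/M phase in B-cell progenitor-like cells was 15296 CPM in control, 16478 in Mll3, 16967 in Mll4 and 9977 in Mll3/4. Of these 52 genes, 29 were past 1.5-fold lower in Mll3/4, against 17.6% of all genes. The summed level of 43 genes of the S phase was 5067, 5200, 6936 and 3403 CPM. Markers of neutrophils, the largest control class, summed to 2426 CPM in the control B class, with 8 of 9 above 0, and to 78.1 CPM in Mll3/4, with all 9 above 0. The HSC/MPP markers summed to 51.4 CPM there in control and 137 in Mll3/4, with 6 and 7 of 8 above 0. The part of these neutrophil and HSC/MPP markers in the Ezh2 difference was not tested.

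B cells were next split into 3 ranges by the share of their UMIs on the S and G2/M lists, at the control terciles of 0.376% and 1.79%. These are ranges and not cell types, and 17.7% of control and 12.2% of Mll3/4 cells lay near a limit. The highest range held 33.3% of control B cells, 44.6% of Mll3, 53.8% of Mll4 and 22.2% of Mll3/4. Ezh2 was at 292, 334 and 605 CPM from the lowest to the highest range in control, and at 123, 231 and 446 CPM in Mll3/4. It was lower in Mll3/4 in each range, by log2 ratios of -1.25 (-1.47 to -1.02), -0.53 (-0.72 to -0.34) and -0.44 (-0.53 to -0.35), so the difference was as large as over the whole class only in the lowest range. In the Mll3-labelled library Ezh2 followed control, with log2 ratios of -0.11, 0.07 and -0.03 in the 3 ranges.

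Suz12 went from 85.8 through 139 to 241 CPM in control and from 70.9 through 132 to 194 CPM in Mll3/4. Its difference between the libraries within a range was -0.27 (-0.68 to 0.16), -0.07 (-0.36 to 0.23) and -0.32 (-0.46 to -0.18), so that only the highest range excludes 0. Eed went from 25.7 to 78.2 CPM in control and from 29.3 to 67.8 in Mll3/4, and its interval between libraries included 0 in all 3 ranges. Mtf2 differed in another way. It was at 124, 129 and 115 CPM in control but at 101, 117 and 150 CPM in Mll3/4. In the highest range it was thus higher in Mll3/4 than in control, by 0.38 (0.18 to 0.59). Mtf2 in that range was at 135 CPM (119 to 152) in Mll3 and 139 (96.8 to 193) in Mll4. Both intervals overlap that of Mll3/4 (145 to 155), and control held the lowest level.

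Jarid2 and Ezh1 were highest where division transcripts were lowest. Jarid2 was at 56.6, 45.8 and 28.4 CPM in control and at 39.6, 28.8 and 20.3 in Mll3/4. Ezh1 was at 30.9, 11.1 and 6.96 CPM in control, on 18, 8 and 13 counts, and at 14.9, 13.5 and 9.14 in Mll3/4. As a log2 ratio of the highest to the lowest range in control B cells, Ezh2 stood at 1.05 (0.82 to 1.29). Suz12 stood at 1.49 (1.07 to 1.94) and Eed at 1.60 (0.83 to 2.48), with 15 Eed counts in the lowest range. The same ratio was -0.997 (-1.65 to -0.32) for Jarid2, -2.15 (-3.30 to -1.04) for Ezh1 and -0.10 (-0.49 to 0.30) for Mtf2. For Eed it was 0.36 (-0.46 to 1.31) in Mll3 and 1.21 (1.07 to 1.35) in Mll3/4. The 2 catalytic genes thus changed in opposite directions along this range.

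HSC/MPP-like cells of the control library gave the same signs with their own limits of 0.410% and 0.998%, apart from Mtf2. Ezh2 was at 65.7, 141 and 223 CPM from the lowest to the highest range, a log2 ratio of 1.77 (1.60 to 1.94). Suz12 stood at 1.11 (0.94 to 1.28), Eed at 0.68 (0.43 to 0.93) and Mtf2 at 0.35 (0.20 to 0.51). Jarid2 was at -0.77 (-1.04 to -0.50) and Ezh1 at -0.48 (-0.88 to -0.07).

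**Figure D3:**
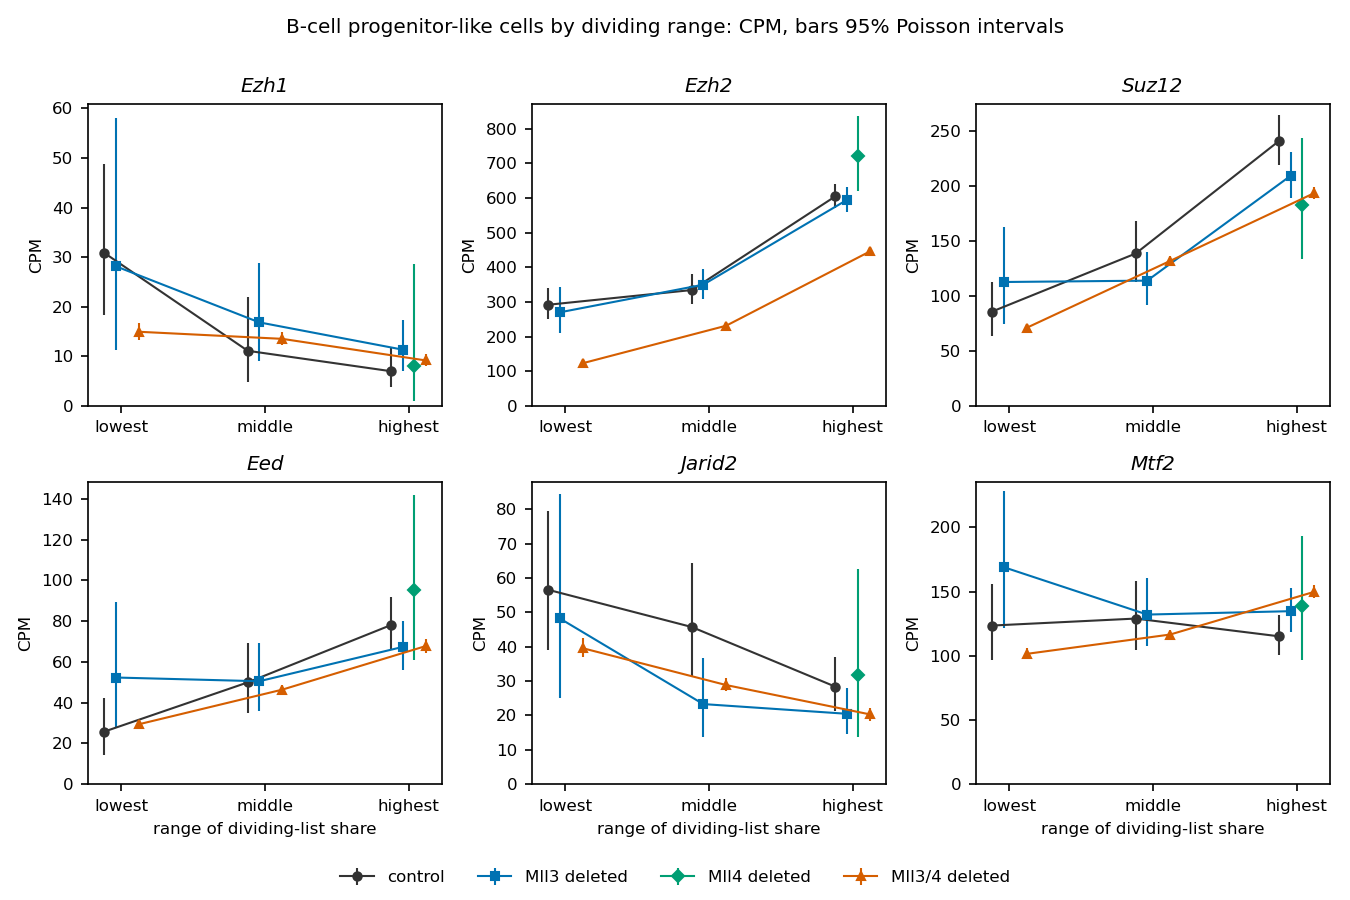
Level in CPM of the PRC2 genes in B-cell progenitor-like cells in the lowest, middle and highest range of the share of S and G2/M list UMIs, by library, as points with 95% Poisson intervals. Ezh2 of Mll3/4 lies below control in each range, at 123, 231 and 446 against 292, 334 and 605 CPM, while Jarid2 declines with the range in control and in Mll3/4.

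A second comparison paired clusters by their G2/M level, a choice made after the data had been seen. They were matched in no other way. The pairs held 1307 and 5109 of the 6830 Mll3/4 B cells, and the others entered neither pair. Kit in the B class was at 82.6, 55.6, 191 and 192 CPM in control, Mll3, Mll4 and Mll3/4, and its part in the Ezh2 difference was not tested. Cluster 15 of control and cluster 23 of Mll3/4 had the highest G2/M levels, 22841 and 24809 CPM, and Ezh2 was at 591 and 459 CPM in them, a log2 ratio of -0.37 (-0.45 to -0.28). Cluster 0 of control and clusters 21 and 22 of Mll3/4 had low G2/M levels, 3750 against 2767 and 3185 CPM. Ezh2 was at 325 and 191 CPM in these, a log2 ratio of -0.77 (-0.91 to -0.62). Ezh2 was lower in Mll3/4 in both pairs, below the 1.5-fold threshold in the dividing pair and past it in the other. Suz12 was at -0.25 and -0.07 in the 2 pairs. Jarid2 was at -0.61 (-1.04 to -0.16) and -0.71 (-1.06 to -0.33), past 1.5-fold lower in both, on 51 and 68 control counts. The share of all genes past 1.5-fold is not given for these pairs. Jarid2 stood at 26.6 and 54.3 CPM in control and at 17.4 and 33.3 in Mll3/4. Mll3 cells of clusters 15 and 0 were near the Mll3/4 levels, at 19.5 and 30.5 CPM (35 and 33 counts). The lower Jarid2 was thus not particular to Mll3/4. Mll4 held only 7 and 2 counts in these clusters.

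The share of single B cells with an Ezh2 UMI depends on depth, so each cell was thinned to 2000 UMIs. The share was then 46.1% (41.4 to 50.9) of 438 control cells, 58.3% of 350 Mll3 cells, 73.0% of 74 Mll4 cells and 33.9% (32.8 to 35.1) of 6747 Mll3/4 cells. Without thinning it was 67.3%, 77.4%, 62.9% and 73.1%, at median depths of 4414.5, 6521.5, 2276 and 9936 UMIs. Thinning left out 30, 18, 69 and 83 shallower cells. No class is known to lack Ezh2, and the lowest share after thinning among the control classes was 7 of 50 (interval 5.82% to 26.7%) in T/NK/innate lymphoid-like cells.

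In HSC/MPP-like cells the Mll3-labelled library was close to control. No member passed 1.5-fold, against 8.17% of genes, and the median was 0.07 beside -0.03 over all genes. In the Mll4-labelled library Eed was at 82.4 CPM against 52.2 in control and 52.3 in Mll3, a log2 ratio to control of 0.66 (0.42 to 0.88). It was the 1 member past 1.5-fold, against 32.9% of genes. Mtf2 was at 157 CPM against 108 in control and 116 in Mll3 (0.54, 0.37 to 0.70). Ezh2, at 161, 169 and 183 CPM in control, Mll3 and Mll4, and Suz12, at 126, 131 and 142, were each higher in Mll4 by 0.18, a direction that turned to -0.07 for both relative to the median shift of 0.24 in this class. Relative to the same shift Eed stood at 0.41 and Mtf2 at 0.29, below 1.5-fold. Markers of neutrophils summed to 3113 CPM in this class of Mll4, against 1201 in control and 978 in Mll3. Those of basophil/mast cells summed to 593, 237 and 159 CPM in the same order, and erythroid markers to 307, 390 and 456. The HSC/MPP markers summed to 855, 867 and 834 CPM. The part of these markers in the Eed and Mtf2 differences was not tested.

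The Mll4-labelled HSC/MPP-like cells also held more division transcripts, with a median share of 1.35% against 0.668% in control and 0.672% in Mll3, and 62.2% of them lay in the highest range. Within that range Eed was still higher than in control, by 0.56 (0.28 to 0.84), and Mtf2 by 0.42 (0.22 to 0.62), whereas Ezh2 was at -0.06 (-0.23 to 0.11) and Suz12 at 0.00 (-0.20 to 0.20). The class consists of clusters 2 and 14. Eed was at 0.80 and 0.49 in them and Mtf2 at 0.56 and 0.45, with Ezh2 at 0.00 and -0.01. The median shift of 0.24 in this class was not taken off in these ratios by range and cluster.

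Across the 8 classes with at least 50 cells in control and Mll4, the Eed interval lay above 0 in 6 and below it in none, with log2 ratios from 0.25 to 0.66. For Mtf2 it lay above 0 in 5 and below in none (0.03 to 0.85). Ezh2 went both ways, with 3 intervals above 0 and 5 below, from -0.63 in basophil/mast-like cells to 0.35 in B-cell progenitor-like cells. In the Mll3-labelled library the 8 Ezh2 ratios stayed between -0.04 and 0.12. These classes share their libraries and are not replicates, and no shift was taken off in these counts.

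Ezh1 was past 1.5-fold higher in 4 of these 8 Mll4 classes. It was at 12.2 against 6.91 CPM in erythroid progenitor-like cells (0.81, 0.46 to 1.15, 32.2% of genes past 1.5-fold) and at 11.98 against 7.80 in neutrophil-like cells (0.62, 0.31 to 0.93, 27.4% of genes). In granulocyte progenitor-like cells it was at 15.9 against 8.45 CPM (0.91, 0.28 to 1.51, 39.7% of genes), and in megakaryocyte-like cells at 16.9 against 10.7 (0.66, 0.12 to 1.16, 30.6% of genes). In all 4, its share of both catalytic genes was higher as well, for example 8.78% against 4.87% in neutrophil-like cells and 9.79% against 5.04% in megakaryocyte-like cells. The Mll4-labelled library is the shallowest, and over 27 class and library groups the Ezh1 level ran against the median UMIs per cell (Pearson r = -0.58). The part of depth in the Ezh1 difference was not tested.

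Of the other members in Mll4 classes, Mtf2 was past 1.5-fold higher in megakaryocyte-like cells at 158 against 87.9 CPM (0.85, 0.68 to 1.01). Jarid2 was higher in monocyte/macrophage progenitor-like cells at 63.6 against 39.4 CPM (0.69, 0.44 to 0.94, 32.6% of genes). Ezh2 was lower in basophil/mast-like cells at 87.3 against 135 CPM (-0.63, -1.09 to -0.18, 39% of genes). In the Mll3-labelled library Jarid2 was past the threshold in basophil/mast-like cells, on 18 against 52 counts with an interval that includes 0 (-0.64, -1.50 to 0.16, 16.3% of genes). None of the 6 was past it in the Mll3 erythroid, megakaryocyte, granulocyte, neutrophil or monocyte classes, where 10.2%, 9.13%, 7.2%, 8.3% and 7.52% of genes were.

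Over the 27 class and library groups of at least 50 cells, which share libraries and so are not independent, Suz12 and Ezh2 varied together (r = 0.72). Jarid2 ran against both (-0.58 and -0.52). With the summed G2/M list the correlations were 0.72 for Ezh2, 0.77 for Suz12, 0.12 for Eed, -0.02 for Mtf2, -0.42 for Ezh1 and -0.57 for Jarid2. With the S list they were 0.71, 0.85, 0.55, 0.53, -0.22 and -0.45 in that order. Neutrophil-like cells stood apart from the Ezh2 pattern, with 152 CPM in control at a G2/M level like that of B cells.

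**Figure D4:**
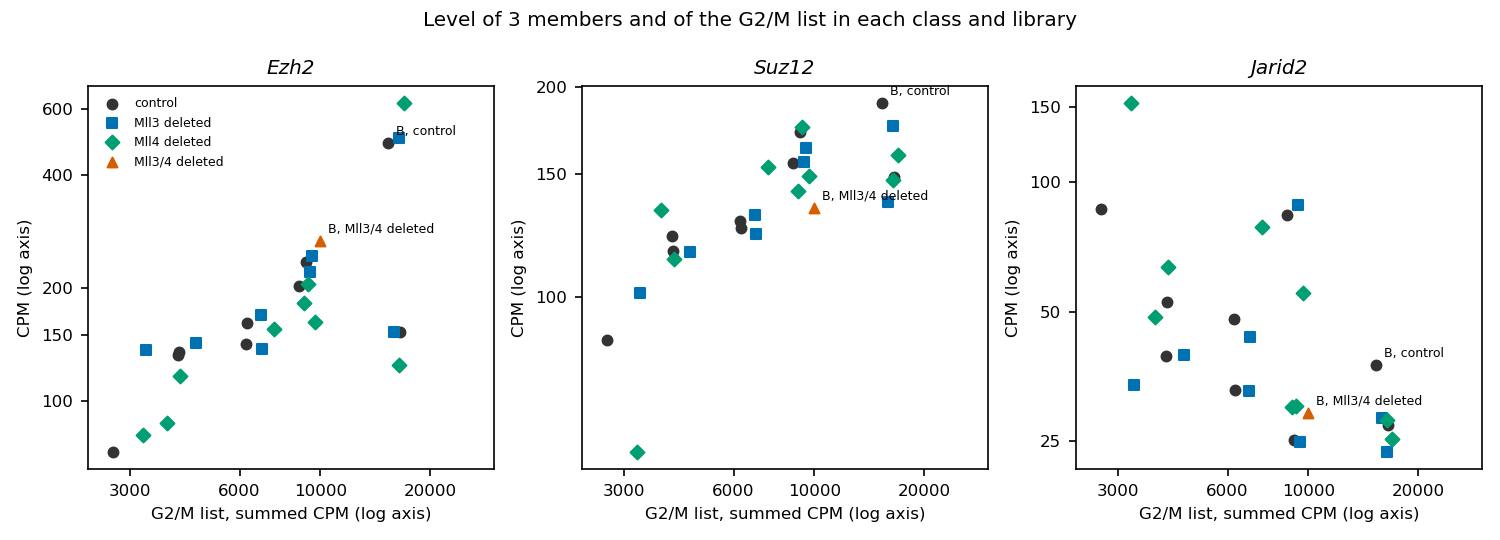
Level of Ezh2, Suz12 and Jarid2 in CPM against the summed CPM of the G2/M list (both log axes), 1 point per class and library. The Mll3/4 B class, at 9977 CPM of the list, has 267 CPM of Ezh2, between the control erythroid class at 235 CPM and the control B class at 486 CPM.

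Among 6009 genes with a mean of at least 20 CPM, those most like Ezh2 over the 27 groups were Anp32e (r = 0.95), Hmgb1 (0.93) and Ctcf (0.88). Suz12 was most like Mad2l1, Rrm1 and Tubb4b (0.90, 0.90 and 0.89). Anp32e, Ctcf and Tubb4b are themselves on the G2/M list and Rrm1 on the S list. Eed was most like Kpna3 (0.90), Mtf2 like Qser1 (0.89), Ezh1 like Kdm4a (0.89) and Jarid2 like Rap2b (0.80). Jarid2 had the weakest best match of the 6.

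The further PRC2 subunits were listed as Rbbp4, Rbbp7, Aebp2, Phf1, Phf19, Epop, Lcor and Ezhip, of which all but Ezhip matched a symbol. None of the 7 was past 1.5-fold over all cells of the Mll3-labelled library. Under the Mll4 label 4 of 7 were higher and 0 lower over all cells, where 40.4% of all genes passed in either direction, with a median of 0.71 beside 0.02 for all genes. The 2 highest were Phf1 (1.01, 6.35 against 3.14 CPM) and Phf19 (1.004, 7.41 against 3.70), relatives of Mtf2 that act in its place. The 2 lowest were Rbbp7 (-0.03) and Lcor (0.19). In Mll4 HSC/MPP-like cells, where 32.9% of genes passed, 3 of 7 were higher, led by Epop (1.40, 29.6 against 11.2 CPM) and the histone binding subunit Rbbp4 (0.92, 327 against 173 CPM).

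In Mll3/4 B-cell progenitor-like cells 1 of the 7 was past the threshold (42.5% of all genes), Epop, on 197 against 5 counts with an interval that includes 0 (0.72, -0.53 to 2.36). Lcor stood next at 0.55 (34.1 against 23.3 CPM). Rbbp4, at 247 against 309 CPM (-0.32, -0.42 to -0.23), and Rbbp7, at 172 against 206 CPM (-0.26), were lower without passing it. Aebp2, Phf1 and Phf19 stayed within 1.5-fold too.

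PRC1, the second Polycomb complex, places ubiquitin on histone H2A and includes proteins that bind the mark of PRC2. Of its 20 listed genes 0 were past 1.5-fold over all cells of Mll3. In Mll4 over all cells 3 were higher and 2 lower, against 40.4% of all genes in either direction, the extremes being Pcgf2 (0.94) and Rnf2 (0.79) against Pcgf6 (-0.87) and Pcgf1 (-0.63). In Mll3/4 B-cell progenitor-like cells 4 were higher and 2 lower, against 42.5% of all genes in either direction, with a median of -0.07 beside 0.02. Bmi1, a core PRC1 subunit of stem and progenitor cells, was at 28.4 against 15.8 CPM (0.85, 0.44 to 1.28) and Cbx6 at 37.1 against 22.7 (0.71). Ring1, one of the ubiquitin ligases, was at 9.95 against 17.3 CPM (-0.80, -1.20 to -0.38) and Pcgf5 at 48.1 against 81.3 (-0.76). The list therefore did not lean one way.

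The enzymes that remove the mark, Kdm6a and Kdm6b, were not past 1.5-fold in Mll3/4 B cells, at -0.15 (-0.37 to 0.07) and 0.29 (-0.10 to 0.70). Kdm6a, which lies on the X chromosome, was lower in Mll4 over all cells at 21.9 against 33.4 CPM (-0.61, -0.72 to -0.49) and in Mll4 HSC/MPP-like cells at 24.6 against 43.3 (-0.82). The Xist level given above for that library was at 0.519 CPM, and its part in the Kdm6a difference was not tested.

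Of 18 genes described as silenced by PRC2, most had few or no counts in control B cells. The Mll3/4 B class held many more UMIs, and Hoxa9, Cdkn2a, Hoxa10 and Cdkn2b reached 20 counts there and not in control, so their levels are given as a description and no count over the list is read as a result. Hoxa9, a stem and progenitor cell homeobox gene, was at 72.7 CPM against 3.15 in control, 10.1 in Mll3 and 16.8 in Mll4 B cells (log2 ratio to control 4.53) and 64.2 in control HSC/MPP-like cells. Cdkn2a, which encodes inhibitors of the cell cycle, was at 14.03 against 0.630 CPM on 1065 against 2 counts, a log2 ratio with an interval of 2.62 to 7.52. It had 4 counts in Mll3 B cells (1.39 CPM) and 1 in Mll4 B cells, where the interval reaches 15.6 CPM and a level like that of Mll3/4 was not detectable as different at this depth.

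Hoxa10, a further homeobox gene, was at 13.6 CPM with 0 counts in control B cells, and was at least 14.4-fold higher, against a floor of 3 counts in the control B class. Cdkn2b, a related cell cycle inhibitor, had 51 counts in Mll3/4 and 0 in control, a level below that floor, so that no fold is given. Igf2bp3, a gene of fetal blood cells, was at -0.09. Lysine 27 methylation was not measured in these libraries.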

How the data were processed

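Single-cell RNA libraries of sorted mouse marrow, 1 per group, were deposited by the authors as matrices of raw UMI counts. They were made with Cell Ranger 6.1.2 and mm10, per the submitters' processing notes. GENCODE M21 holds 32235 of the 32285 identifiers. The members and the gene lists were chosen with earlier results of these data known.

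Cells with at least 500 genes, at least 1000 UMIs and at most 10% mitochondrial UMIs were kept. Scrublet (scanpy 1.11.5) ranked doublets, and 5.29% to 8.01% of each library was taken out from the top of the ranking (0.8% for every 1000 barcodes), because its automatic threshold took 0.054% in Mll3/4. Doublets may remain. The 1998 variable genes, 30 components, 15 neighbours and Leiden resolution 1 gave 25 clusters, named from 99 marker genes. A name needed 3 markers detected in 10% of cells. Counts were summed per class and library (at least 50 cells) and given as CPM with exact Poisson intervals. Shares have exact Clopper-Pearson intervals and ratios conditional binomial ones. A gene was past the threshold at 1.5-fold with at least 20 counts in either library. No pseudocount was used for ratios, and correlations used log2(CPM + 1). Free RNA was not corrected. Named were the 6 members, the 2 highest and 2 lowest genes of each list, and the 3 genes most like each member over the groups. The genes printed from the silenced list, and Lcor, Aebp2, Phf1 and Phf19 in the B class, were chosen after their values were seen. The script for ratios was tested on simulated counts. Intervals were computed with scipy 1.17.1.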

Additional observations from a re-analysis of the deposited data

How the results depend on the processing

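No paired analysis was possible because each group is 1 library, and leaving out a library leaves no group to compare. Over the counts of members past the threshold and the medians, 125 alternative values were close to those reported and 25 moved. The share of all genes past the threshold is given only for the main setting. Counts of members under the alternatives therefore cannot be set against genes at large. The median of 0.02 in the Mll4-labelled B class is smaller than the shift of 0.09 that centring takes off, so its sign turned. Among single members 360 were close and 64 moved. Some directions turned: in Mll4 HSC/MPP-like cells Jarid2 kept its direction in 7 of 12 alternatives and Ezh1 in 9 of 12. The cause of each move was not tested.

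Over all cells, the count in the Mll4-labelled library went from 1 to 0 with centring on the median ratio, with a 2-fold threshold and with the mean of each cell's share, and its median from 0.12 to 0.030 with centring and to 0.034 with the mean share. The count in Mll3/4 went from 1 to 0 at 2-fold. In B-cell progenitor-like cells the Mll3 count went from 1 to 0 at 2-fold and at Leiden resolution 0.5, and its median became 0.22 with the mean share. The Mll4 count there went from 0 to 1 with centring, resolution 0.5 and the mean share, and to 3 with thinning. The Mll3/4 count went from 1 to 0 at 2-fold, to 3 with thinning and to 2 with the mean share, and to 2 with cluster 0 against clusters 21 and 22, an alternative chosen after seeing the data. With cluster 15 of control against cluster 23 of Mll3/4, chosen in the same way, Jarid2 passed and Ezh2 did not. For Ezh2 itself, all 12 alternatives were lower, from -0.86 to -0.37.

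In HSC/MPP-like cells the Mll3 count went from 0 to 1 with thinning. The Mll4 count went from 1 to 0 with centring, at 2-fold and with thinning, and to 2 without doublet removal, at resolutions 0.5 and 2 and with the mean share. With another random seed the count stayed at 1 but Eed stood at 0.51 and Mtf2 at 0.59, so that a different member passed. Leaving the Polycomb lists in the clustering changed nothing because none of those genes was among the variable ones. Depth limits Ezh1 most, which had 4 counts in the Mll4-labelled B class.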
